A study of Homo sapiens with 2 samples.

Results

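The expression of FN1, ACTA2, MMP2, SPARC and KRT19, 5 genes of the extracellular matrix and of cell shape, was examined in paclitaxel-treated lung cancer cells, together with the alternative exons of FN1. The genes were picked by name with earlier results of these data known. In the deposited expression table, 10 of 993 transcripts belonged to them, 6 of FN1 and 1 of each other gene, and in the deposited table of skipped exons 12 of 35827 events did, 9 of FN1 and 3 of MMP2.

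A549, a human cell line of non-small cell lung cancer, received DMSO or 7.22 nM paclitaxel, a drug that stabilises microtubules, for 72 h in F12K medium with 10% serum. The control is labelled as having no treatment, while the protocol names DMSO. RNA of 1 library per condition was sequenced, so there is no replicate check, no test was made, and each value below describes 1 library. Levels are in FPKM, fragments scaled to the length of the transcript and to the total of mapped fragments, and the error and the depth behind them are unknown.

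Transcripts outside the expression table were not analysed here. The smallest change in it, as a log2 ratio of paclitaxel over DMSO, is 1.52 in size, so it holds transcripts that differ and no unchanged ones. None of 27 marker genes of epithelium, fibroblasts, endothelium, immune cells and smooth muscle is among its 811 gene symbols, so the cell type could not be checked against them. In bulk RNA, more cells with a transcript and more of that transcript per cell cannot be told apart.

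Fibronectin, the product of FN1, is a secreted glycoprotein that links cells to the matrix through integrins. It is built of repeated modules, and a single gene gives rise to many forms by alternative splicing in 3 places. The extra domains EDA and EDB are each a type III module encoded by 1 exon, which fibroblasts and many tumour cells keep and the liver leaves out of plasma fibronectin. The variable region V is kept in whole, in part or not at all, by the use of inner splice sites. ACTA2 encodes the smooth muscle actin of contractile cells and myofibroblasts, MMP2 a gelatinase that degrades collagen of basement membranes, SPARC a collagen-binding matricellular protein, and KRT19 a keratin of simple epithelia.

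All 3 alternative regions of FN1 are among its skipped exon events. Their sequences are shown because the listed FN1 transcripts differ in them. FN1 lies on the minus strand of chromosome 2, and the bases were read from hg38, the build of the files. The EDB exon, chr2:215392931-215393203, is exon 25 of the 46 exons of the MANE Select transcript ENST00000354785, and the EDA exon, chr2:215380811-215381080, is its exon 33. In the EDA exon the capitals mark GAAGAAGA, a purine-rich motif known as a splicing enhancer. In the V exon, chr2:215372109-215372375, the capitals mark the first 75 bases, or 25 codons, which an inner 3′ splice site removes.
EDB exon: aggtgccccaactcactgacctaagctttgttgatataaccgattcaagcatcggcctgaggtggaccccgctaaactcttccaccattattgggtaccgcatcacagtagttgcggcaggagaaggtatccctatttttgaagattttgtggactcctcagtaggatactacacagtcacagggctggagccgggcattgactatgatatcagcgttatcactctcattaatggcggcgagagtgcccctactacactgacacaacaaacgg
EDA exon: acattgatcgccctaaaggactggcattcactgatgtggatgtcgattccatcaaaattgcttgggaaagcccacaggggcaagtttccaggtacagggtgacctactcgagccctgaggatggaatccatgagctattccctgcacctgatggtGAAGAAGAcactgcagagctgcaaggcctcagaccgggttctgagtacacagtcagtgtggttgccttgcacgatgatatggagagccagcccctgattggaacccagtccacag
V exon: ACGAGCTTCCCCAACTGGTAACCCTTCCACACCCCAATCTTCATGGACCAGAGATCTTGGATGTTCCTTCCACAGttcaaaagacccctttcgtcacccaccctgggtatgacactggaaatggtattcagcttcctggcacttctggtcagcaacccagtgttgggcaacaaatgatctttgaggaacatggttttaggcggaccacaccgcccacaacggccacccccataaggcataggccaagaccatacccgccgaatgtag

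The intron after EDB holds repeats of TGCATG, the motif bound by RBFOX splicing factors. Within 1000 bases after the EDB exon the motif, searched only in the direction of the RNA, begins at bases 42, 603, 636 and 740. Of the 31197 distinct skipped exons in the table, 24.7% had at least 1 TGCATG in a window of this size after the exon, and 51, or 0.163%, had 4 or more. The windows after EDA and after the V exon held none. GAAGAAGA was found once in the EDA exon, at base 156, and was not found in EDB or V. Among 758 distinct skipped exons of 250 to 300 bases, 1.98% held it. These matches describe the sequence and were not related to a measured level. Bases 551 to 850 after the EDB exon, chr2:215392081-215392380 on the minus strand, are shown with 3 of the TGCATG copies in capitals.
Intron after EDB: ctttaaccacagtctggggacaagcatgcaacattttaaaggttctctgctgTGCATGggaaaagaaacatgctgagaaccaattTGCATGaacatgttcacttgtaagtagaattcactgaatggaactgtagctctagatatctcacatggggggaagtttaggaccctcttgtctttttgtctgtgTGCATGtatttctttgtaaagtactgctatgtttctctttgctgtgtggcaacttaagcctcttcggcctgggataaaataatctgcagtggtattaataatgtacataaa

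The listed transcripts of all 5 genes were higher in the paclitaxel library than in the DMSO library. Over all 993 listed transcripts, 46.1% were higher and 53.9% were lower with paclitaxel, against 10 of 10 here, and by gene 49.1% of all symbols and 5 of 5 here were higher. Since the genes were picked with their levels known, these counts are a description. The difference was at least 4-fold for each of the 10 transcripts, for 9 of them with 0.1 FPKM added to both values and for 4 with 1 FPKM added. Such a difference was also found for 41.1% of all listed transcripts, or 408 of the 458 that were higher. Reaching 4-fold therefore does not set these genes apart. The 6 FN1 transcripts share reads and are not independent of each other.

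**Figure D1:**
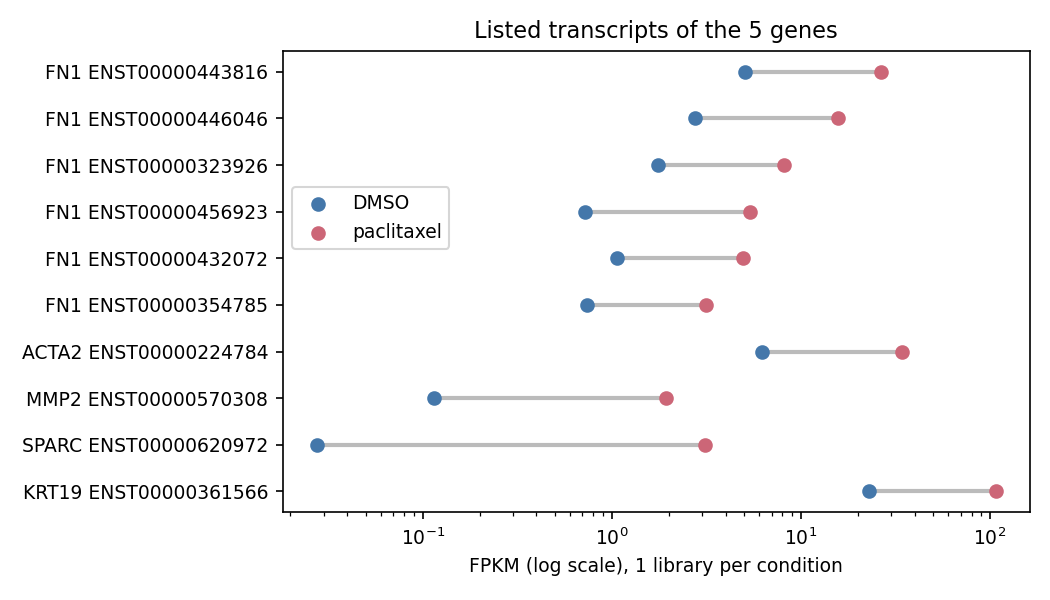
FPKM of the 10 listed transcripts of the 5 genes (x axis, log scale) in the DMSO library (blue) and in the paclitaxel library (red), with 1 library per condition and a grey line joining both values of a transcript. Each red point lies to the right of its blue point. The longest line is that of SPARC, which runs from 0.0275 to 3.10 FPKM, and KRT19 lies farthest to the right.

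**Figure D2:**
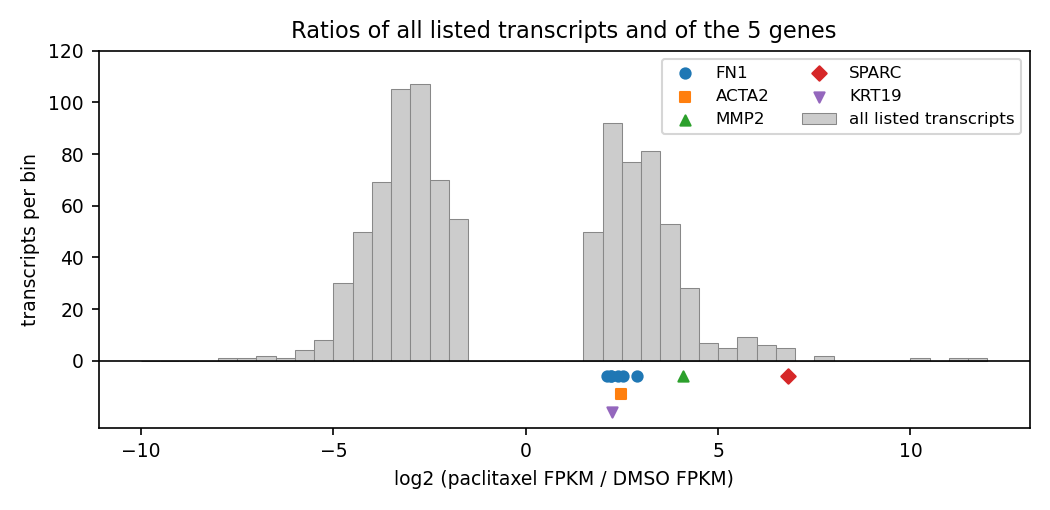
Number of listed transcripts (y axis) per bin of log2 ratio of paclitaxel over DMSO (x axis) for the 921 transcripts above 0 FPKM in both libraries, with the transcripts of the 5 genes marked below the zero line at heights that carry no value. FN1, ACTA2 and KRT19 lie between 2.10 and 2.90, MMP2 at 4.08 and SPARC at 6.81, and no transcript lies near 0 because the table holds none.

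FN1 was represented by 6 of its 13 protein-coding transcripts in GENCODE 44. Their summed level was 12.1 FPKM in DMSO and 64.0 FPKM in paclitaxel, which is 5.30-fold higher. The log2 ratios of the single transcripts ran from 2.10 to 2.90, against a median of 2.92 over all higher transcripts with a ratio, so that each FN1 transcript lay below this median. The most abundant, ENST00000443816, lacks both EDA and EDB and keeps 267 bases of the V region. It was at 5.08 FPKM in the DMSO library and at 26.7 FPKM in the paclitaxel library, a log2 ratio of 2.39.
ENST00000446046 keeps EDA, lacks EDB and keeps 192 bases of V, the form that uses the inner 3′ splice site. Its level was 2.74 FPKM in DMSO and 15.7 FPKM in paclitaxel, a log2 ratio of 2.52. This was the highest ratio among the 5 transcripts that span the whole gene. With 1 FPKM added to both values it was 2.16, below the 2.19 of ENST00000443816.
ENST00000323926 holds EDA, EDB and 267 bases of V. It was at 1.75 FPKM in the DMSO library and at 8.14 FPKM in the paclitaxel library.
ENST00000432072 keeps EDB but skips EDA and the whole V region, and its level was 1.06 FPKM in DMSO and 4.93 FPKM in paclitaxel. The MANE Select transcript ENST00000354785 keeps everything, namely EDA, EDB and the full V region of 360 bases. It was one of the least abundant forms, at 0.736 FPKM in the DMSO library and at 3.16 FPKM in the paclitaxel library, and its log2 ratio of 2.10 was the lowest of the 6.
ENST00000456923 differs in kind, since its annotated start lies inside the EDB exon and it covers only the 3′ part of the gene with 21 exons. It lacks EDA and keeps the full V region. Its level was 0.724 FPKM in DMSO and 5.41 FPKM in paclitaxel, a log2 ratio of 2.90, the highest of the 6. In the DMSO library it was thus the lowest listed FN1 transcript, and in the paclitaxel library it stood above ENST00000432072 and ENST00000354785. With 1 FPKM added to both values its log2 ratio was 1.89 and no longer the highest of the 6.

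**Figure D3:**
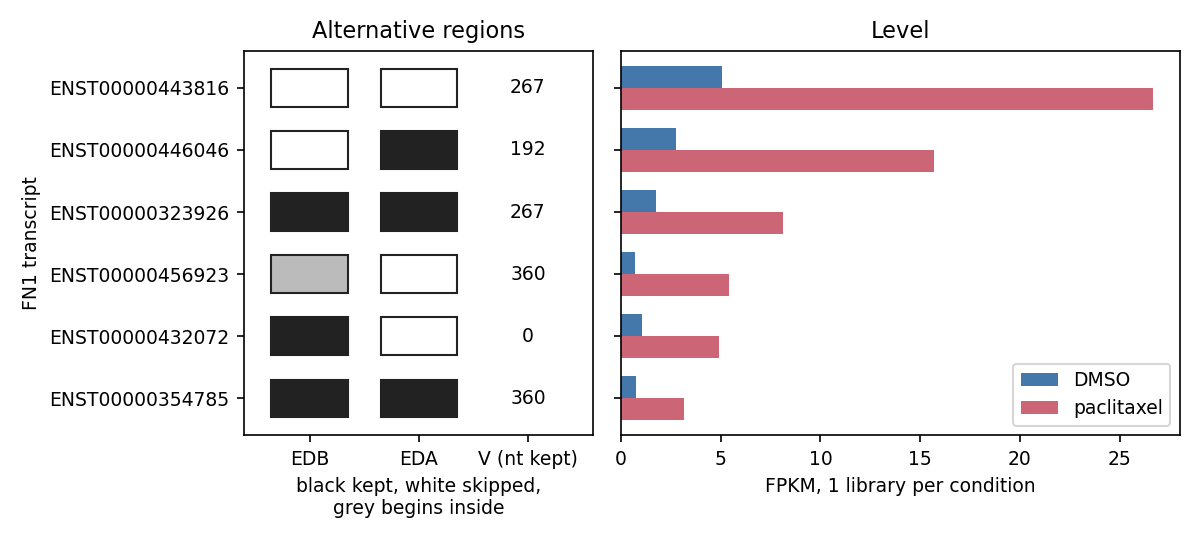
The 6 listed FN1 transcripts with their alternative regions (left; black kept, white skipped, grey a start inside the exon, and the number of V bases kept) and their FPKM in the DMSO (blue) and paclitaxel (red) libraries (right, bars from 0, 1 library per condition). ENST00000443816, without EDA and EDB, has the longest bar in both libraries, 5.08 and 26.7 FPKM.

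Grouped by exon, each FN1 form was 4.58- to 5.87-fold higher in the paclitaxel library, and the shares of the forms differed by 3.50 percentage points or less between the libraries. Transcripts with EDA summed to 5.23 FPKM in DMSO and 27.0 FPKM in paclitaxel, and those without EDA to 6.87 and 37.0 FPKM. The share with EDA was thus 43.2% in the DMSO library and 42.2% in the paclitaxel library. Among the 5 transcripts that span the whole gene it was 46.0% and 46.1%.
Transcripts with EDB summed to 3.55 FPKM in DMSO and 16.2 FPKM in paclitaxel. Their share of the 5 transcripts that span the whole gene was 31.2% with DMSO and 27.7% with paclitaxel, a difference of -3.50 percentage points. The transcript that begins inside EDB was left out of this share but was counted for the V forms and for the first EDA share. It holds part of the EDB exon and had the highest log2 ratio of the listed FN1 transcripts, 2.90. The EDB difference is therefore not ranked against those of EDA and V.
For the V region, the forms with 267 bases made up 56.5% with DMSO and 54.4% with paclitaxel. The form with 192 bases made up 22.7% and 24.5%, the forms with the full 360 bases 12.1% and 13.4%, and the form without V 8.79% and 7.71%. With 1 library per condition, it cannot be said whether any of these shares differed by more than the spread between replicates. They are shares of the listed transcripts, which leave out the other 7 protein-coding transcripts, and are not inclusion levels. Reads of neighbouring exons do not tie EDB, EDA and V together in 1 molecule, so the division of FPKM among these forms is an estimate of Cufflinks.

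**Figure D4:**
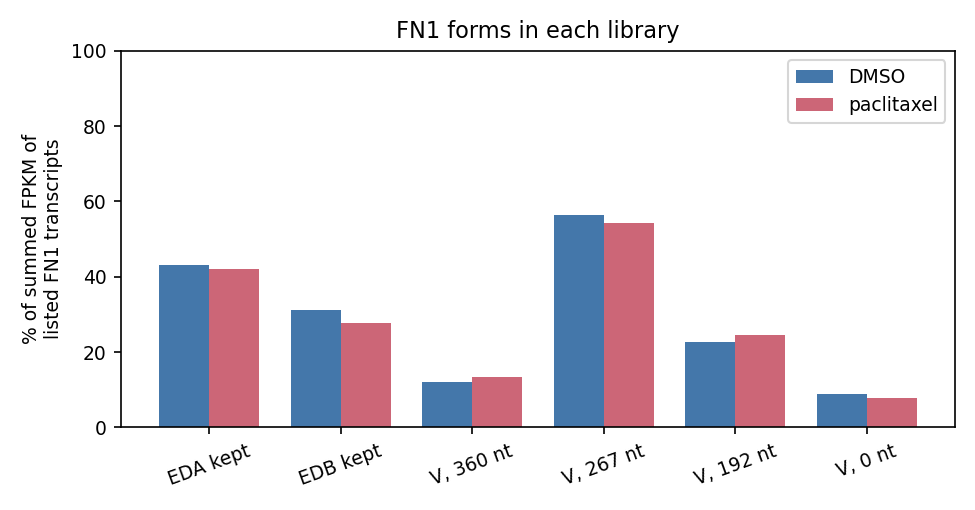
Share (y axis, %) of the summed FPKM of listed FN1 transcripts that keep EDA, keep EDB, or keep 360, 267, 192 or 0 bases of V, in the DMSO (blue) and paclitaxel (red) libraries; EDB is counted over the 5 transcripts that span the whole gene, the others over all 6. Within each pair the bars differ by 3.50 percentage points or less.

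The skipped exon table lists more events for FN1 than for most genes, 9 against a median of 3, and 92.4% of its genes had fewer. The number of exons per gene, 46 in the MANE Select transcript of FN1, was not taken into account. Of the 9 distinct exons, 111 to 273 bases long, 8 were a multiple of 3 in length, which keeps the reading frame when the exon is left out. The share over all 31197 distinct exons in the table was 41.1%. The exception was an exon of 139 bases, exon 41 of the MANE Select transcript, chr2:215370294-215370432.
Apart from EDA, EDB and the V region, which is part of exon 40, the events concern exons 3, 4, 32, 41 and 45, all coding. None of the 13 annotated protein-coding transcripts skips any of these 5 between the neighbours given in the table, and each listed FN1 transcript that reaches them keeps them. EDA, in contrast, is kept by 3 and skipped by 3 of the listed transcripts. The V region gives 2 events, of 267 and 192 bases, which end at the same base and are both skipped in ENST00000432072.
For MMP2 the events concern exons 4, 7 and 12 of the 13 exons of its MANE Select transcript, of 129, 174 and 110 bases, and the listed MMP2 transcript keeps all 3. Exon 7 is skipped in 1 annotated protein-coding transcript. ACTA2, SPARC and KRT19 had no event. The read counts and inclusion levels of these events were not used, since their columns do not name the condition.

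ACTA2 and KRT19, on opposite sides of the mesenchymal and epithelial division, were both higher with paclitaxel. For ACTA2 the listed transcript, ENST00000224784, is the MANE Select form, with 9 exons. Its level was 6.23 FPKM in DMSO and 34.5 FPKM in paclitaxel, which is 5.54-fold higher, a log2 ratio of 2.47. The gene lies on the minus strand of chromosome 10, at chr10:88935074-88991339, and 4 other annotated genes overlap it. Among them are STAMBPL1, ACTA2-AS1 on the opposite strand and FAS, a death receptor gene and p53 target. These overlaps are with the whole gene, while the listed transcript spans only chr10:88935074-88952773. The sources used here do not say whether strand was used in counting. Without it, reads from exons that share bases on opposite strands cannot be told apart. Whether exons of STAMBPL1, FAS or the other overlapping genes share bases with the listed ACTA2 transcript was not examined. FAS is listed under the same locus with 3 transcripts, which went from 4.47 to 17.0, from 1.68 to 8.70 and from 0.998 to 12.2 FPKM. The part of FAS or of the other overlapping genes in the ACTA2 level was not tested.
KRT19 had the highest level of the 5 genes in both libraries. ENST00000361566, its MANE Select transcript of 6 exons at chr17:41523617-41528308, was at 22.9 FPKM in the DMSO library and at 107 FPKM in the paclitaxel library, which is 4.70-fold higher. Its paclitaxel level was above that of 96.5% of the listed transcripts. KRT19 has processed pseudogenes in the annotation, and reads shared with them are divided by an estimate.

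MMP2 and SPARC had larger ratios than FN1, ACTA2 and KRT19 when nothing was added to the FPKM values, and both were at very low levels in the DMSO library. MMP2 lies on the plus strand at chr16:55389700-55506691, with 3 overlapping annotated genes. Its listed transcript ENST00000570308 has 14 exons and a coding sequence of 1752 bases, and it is not the MANE Select form. Its level was 0.115 FPKM in DMSO and 1.94 FPKM in paclitaxel, a log2 ratio of 4.08, above that of 86.6% of the higher transcripts with a ratio. With 1 FPKM added to both values the log2 ratio was 1.40.
SPARC lies on the minus strand at chr5:151661096-151686975, and the noncoding gene CLMAT3 overlaps it on the other strand. It was listed with ENST00000620972, which is not in GENCODE 44, so its exons are not described. It was at 0.0275 FPKM in the DMSO library and at 3.10 FPKM in the paclitaxel library, a log2 ratio of 6.81, above that of 98.3% of the higher transcripts with a ratio. With 1 FPKM added to both values the log2 ratio was 1.995, just below 4-fold. The order of the genes by ratio turned with this addition, since the ratios of ACTA2, KRT19 and the most abundant FN1 transcript were then 2.30, 2.18 and 2.19, above those of MMP2 and SPARC. Not all FN1 transcripts stood above them. ENST00000456923, at 1.89, was among those below SPARC, and the lowest, ENST00000354785 at 1.26, was also below MMP2. The MANE Select transcripts of MMP2 and SPARC were not analysed here, and neither gene has a value for its total expression. By the highest listed transcript of each gene, the order of levels with DMSO was KRT19, ACTA2, FN1, MMP2 and SPARC, and with paclitaxel it was KRT19, ACTA2, FN1, SPARC and MMP2. With the transcripts of a gene summed, FN1 stood above ACTA2 in both libraries, at 12.1 against 6.23 FPKM in DMSO and 64.0 against 34.5 FPKM in paclitaxel. With 1 library per condition, it cannot be said which neighbours in this order differ beyond their spread.

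The promoters of FN1 and ACTA2 are shown because 5 listed FN1 transcripts and the listed ACTA2 transcript begin there. All 5 genes were higher in the paclitaxel library, so a higher level does not set FN1 and ACTA2 apart. The sequences are those of RefSeq (GRCh38.p14), from 250 bases before the transcription start to 50 bases after it, and were found for FN1, ACTA2 and SPARC. Both strands were searched. In the FN1 promoter, chr2:215436019-215436318, the capitals mark, in order, the cyclic AMP response element TGACGTCA at position -183, a CCAAT box (CCAAT) at -162 and a TATA-like match (TATAA) at -28, counted from the start. TGACGTCA was found in 1.85%, CCAAT in 34.6% and TATAA in 20.4% of 35116 promoters of this length. The FN1 promoter also holds 6 GC boxes (GGGCGG), some of which overlap one another. More than 1 was found in 26.7% of the promoters, and the share holding as many as 6 was not counted.
In the ACTA2 promoter, chr10:88952724-88953023, the capitals mark 2 CArG-like elements at -121 and -71 and TATAA at -27. CArG boxes are bound by serum response factor in genes of smooth muscle, and a match was counted where at least 5 of the 6 inner letters are A or T. At least 1 such match was found in 8.13% of the promoters and more than 1 in 0.686%. Neither the SPARC promoter nor a second ACTA2 promoter farther upstream, chr10:88991288-88991587, held a CArG-like match in this window. Binding was not measured, and these matches are descriptions of the letters.
FN1 promoter: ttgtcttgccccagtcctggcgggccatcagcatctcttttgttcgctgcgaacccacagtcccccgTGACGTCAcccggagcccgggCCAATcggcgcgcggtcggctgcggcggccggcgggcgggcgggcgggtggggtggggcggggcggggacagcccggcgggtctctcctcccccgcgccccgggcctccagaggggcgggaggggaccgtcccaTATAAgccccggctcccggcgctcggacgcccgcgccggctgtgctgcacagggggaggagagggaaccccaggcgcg
ACTA2 promoter: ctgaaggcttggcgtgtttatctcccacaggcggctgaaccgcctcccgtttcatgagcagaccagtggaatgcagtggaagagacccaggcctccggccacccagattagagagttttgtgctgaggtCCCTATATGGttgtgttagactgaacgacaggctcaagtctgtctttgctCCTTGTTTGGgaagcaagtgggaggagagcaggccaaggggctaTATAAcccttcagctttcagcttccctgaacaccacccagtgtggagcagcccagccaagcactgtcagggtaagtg

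Other genes of the matrix and of adhesion were also higher where the table listed them. Of 151 genes in 10 lists, 16 were listed, all 16 higher, and their median log2 ratio was 2.43. Over all listed genes 49.1% were higher, and the median was -1.71. Without the 5 genes described above, 11 of 146 were listed, and all 11 were higher, with a median of 2.38. The lists too were chosen with earlier results of these data known. These counts are therefore a description, also without the 5 genes. For a gene with several listed transcripts the one with the highest FPKM was taken.
Among matrix glycoproteins, 6 of 25 genes were listed. SPP1, which encodes osteopontin, was at 59.9 FPKM in the DMSO library and at 248 FPKM in the paclitaxel library, HSPG2, the basement membrane proteoglycan perlecan, at 4.96 and 14.2 FPKM, and FBN1, the microfibril protein fibrillin, at 1.01 and 6.02 FPKM. SPP1 had the highest level of the 16 genes in both libraries.
The listed collagens, 2 of 16, were COL4A5, a basement membrane chain, at 1.94 and 8.41 FPKM, and COL12A1, a collagen that associates with fibrils, at 0.587 and 2.63 FPKM. LAMB3 was the only 1 of 8 laminin genes listed, at 0.481 and 2.81 FPKM. SERPINE2, which encodes the protease inhibitor nexin, was the only other listed gene beside MMP2 among 25 proteases and inhibitors, at 52.6 and 216 FPKM.
Integrins, the receptors through which cells bind the matrix, were listed in 3 of 13 cases. ITGA2, a chain of a collagen receptor, was at 5.32 FPKM in the DMSO library and at 33.0 FPKM in the paclitaxel library. ITGAV, a chain shared by several receptors of fibronectin and vitronectin, was at 0.764 and 8.32 FPKM, and its partner ITGB8 at 0.219 and 2.25 FPKM.
ACTA2 was the only 1 of 11 contractile genes listed, and KRT19 the only 1 of 20 epithelial genes. None of 10 mesenchymal transcription factors and markers, 12 genes of TGF-beta signalling or 11 genes of crosslinking and collagen folding was listed. Such genes have no value here, so whether they changed is not known.

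**Figure D5:**
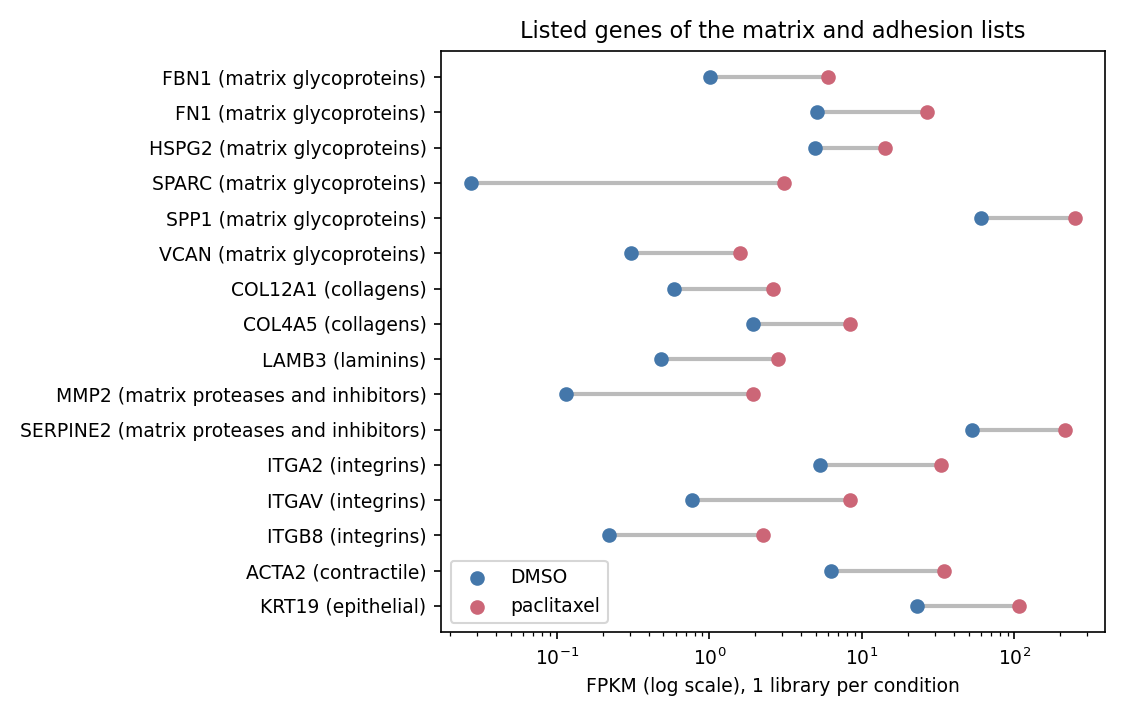
FPKM (x axis, log scale) of the 16 listed genes of the matrix and adhesion lists in the DMSO (blue) and paclitaxel (red) libraries, 1 library per condition, each by its listed transcript with the highest FPKM, with the list in brackets. SPP1 and SERPINE2 have the highest levels in both libraries, and each red point lies to the right of its blue point.

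The transcripts of other genes whose pair of levels lay closest to these were taken as 2 for each transcript, by the distance in the plane of both log2 FPKM values. With only 2 libraries, such likeness means a similar level and a similar ratio and nothing more. Nearest to the FN1 transcript ENST00000443816 was a transcript of SOD2, the mitochondrial superoxide dismutase, at 5.48 FPKM in the DMSO library and at 29.1 FPKM in the paclitaxel library, followed by MDM2. The same SOD2 transcript was the second nearest to ACTA2, after ITGA2. For FN1 ENST00000323926 the nearest was a FAS transcript at 1.68 and 8.70 FPKM, followed by COL4A5. For the other FN1 transcripts the nearest were YPEL3 and NEFL (ENST00000446046), URGCP and ANK1 (ENST00000456923), MFAP3L and LEPREL1 (ENST00000432072), and CNOT6 and FAM212B (ENST00000354785). KRT19 lay closest to GADD45A, a growth arrest gene, at 21.4 and 99.3 FPKM, and then to another SOD2 transcript. For MMP2 the nearest were SERPINI1 and ARL14, and for SPARC BCL9 and GFRA1, all with DMSO levels close to that of the member.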

How the data were processed

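Total RNA was extracted from A549 cells, and 1 library per condition was made after rRNA removal and purification of polyadenylated RNA, as the paper states. The authors mapped the reads to hg38 and estimated the deposited FPKM values with Cufflinks, per transcript. The paper names MapSplice as aligner; CASAVA 1.8.2 and TopHat stand in the processing notes of the submitters. The annotation release was not given in the sources used here. FPKM keeps no depth, so no counting interval could be given. The columns A549_T and A549 were taken as treated and control.

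The columns of the authors' own comparisons (fold changes, p-values, q-values, FDR and inclusion differences) were not used. In the table of skipped exons, the 6 columns with per-library values carry a sample number but no condition and were not used either, so that only exon positions were taken from it, and the planned inclusion levels were not computed.

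Log2 ratios of paclitaxel over DMSO were computed without a pseudocount (Python 3.11.15, pandas 2.3.3, NumPy 2.4.6), and the functions behind them were tested on simulated data. Exons were compared with GENCODE 44. An alternative used a pseudocount of 0.1 or 1 FPKM, a minimum of 1 FPKM in both libraries, or sums per gene. The text names every transcript and event of the 5 genes, up to 3 further genes with the highest FPKM per list, and the 2 nearest transcripts. The genes, lists and motifs were chosen with earlier results of these data known.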

Additional observations from a re-analysis of the deposited data

How the results depend on the processing

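Where a minimum of 1 FPKM in each library was set, 6 of the 10 transcripts of the 5 genes remained to be counted, all higher with paclitaxel, and 9 of the 16 listed genes of the matrix and adhesion lists, also all higher. MMP2 and SPARC have no value under this filter. Summed per gene, the 10 transcripts became 5 genes, all higher. These counts moved because fewer transcripts, or genes in place of transcripts, were counted. With a pseudocount of 0.1 FPKM the log2 ratios of the 10 transcripts ran from 1.96 to 4.65, and with 1 FPKM from 1.26 to 2.30, with no change of direction. With 1 FPKM the ratios of MMP2 and SPARC, 1.40 and 1.995, no longer stood above those of ACTA2 (2.30) and KRT19 (2.18). The alternatives planned for inclusion levels (length normalisation, minimum reads and the size of the difference) were not run, since the columns they need were not used. No replicate could be left out, and no paired analysis was possible because each condition has 1 library. The depth of the libraries is unknown, so the counting error of low values such as those of SPARC and MMP2 with DMSO could not be given.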
